A study of Mus musculus with 8 samples.

Results

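The response of luminal progenitor (LP) cultures to interferon-α (IFNα) was measured on 4 of the 8 arrays of a study of mouse mammary epithelial cells. They are the 2 arrays of LP-enriched cells grown with IFNα and the 2 arrays of LP-enriched control cells, chosen by the subpopulation and treatment given for each sample. Their source was wild-type virgin mice of the strain FVB/N-J, of unstated age, and the cells were grown in 3-dimensional culture as mammospheres and were harvested after 8 days. Treated cultures received IFNα at 1000 U/ml, and the other cultures are labelled control, with no further description of what they received. The other 4 arrays hold a population enriched for mammary stem cells (MaSC), basal cells able to regrow a gland, in the same 2 conditions with 2 samples each. The sample titles give both populations the surface phenotype CD24+CD29hi, and the order of sorting and culture is not stated, so LP and MaSC are taken from the subpopulation label alone. Sample RNA carried the dye Cy5, and the common reference RNA on every array, mixed from 11 mouse cell lines, carried Cy3. A level below is the log2 ratio of sample to reference for a gene, averaged over its probes, and a change is the LP level with IFNα minus the LP control level. All 21794 genes with a gene symbol and a value on every array were tested.

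IFNα is a type I interferon. It binds a receptor made of the chains encoded by Ifnar1 and Ifnar2, whose kinases activate transcription factors, STAT2 among them. Together with IRF9, STAT2 takes part in a complex that binds interferon-stimulated response elements (ISREs) near a large set of interferon-stimulated genes. Those genes encode antiviral effectors, sensors of foreign nucleic acid, the parts of MHC class I antigen presentation, and brakes on the pathway itself. Luminal progenitors are the KIT-positive and ELF5-positive cells of the mammary epithelium that give rise to the luminal lineages.

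LP control replicate 1 had a compressed range, with a standard deviation over probes of 0.63, against 1.19 to 1.26 on the other 7 arrays. Over genes its levels had a slope of 0.413 on those of LP control replicate 2 (r = 0.753), whereas LP IFNα replicate 1 had a slope of 0.862 on IFNα replicate 2 (r = 0.879). These are descriptions across genes, which are not independent replicates. Changes were therefore computed against both LP controls and against LP control replicate 2 alone. For some genes only 1 of these changes is given. The second fit has 1 control array, which is assumed to vary like the other groups. Kit, the receptor tyrosine kinase that marks luminal progenitors, had levels of 6.82 and 7.80 with IFNα and of 3.66 and 7.72 in controls 1 and 2. The basal keratin gene Krt5 was lower in LP than in MaSC controls, by -3.85 ± 0.41 against both LP controls (change ± standard error, limma adjusted p = 0.029) and by -4.31 ± 0.41 from LP control replicate 2 (adjusted p = 0.055). The KIT and ELF5 markers were not higher in LP than in MaSC controls. From LP control replicate 2 the difference was -0.17 for Kit and -0.59 for Elf5. Both genes had lower levels in LP control replicate 1, so against both LP controls these differences are more negative. Only 2 arrays a group limit the precision of all tests below. Separate mice or cultures are not stated for the replicates, so the p-values rest on a spread that may be technical. Fewer cells of a type and less RNA per cell cannot be told apart in these bulk samples.

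With IFNα the LP cultures showed a rise of interferon-stimulated genes of several functional classes, and no gene passed as lower. Against both controls 72 genes rose (0.33% of the genes tested), and against LP control replicate 2 alone 54 rose (0.248%), at a Benjamini-Hochberg adjusted p under 0.05 by limma. The 2 counts share 39 genes, 54.2% of the first and 72.2% of the second, and 87 genes passed in at least 1 of the fits. Of these 87, 68 belong to lists of interferon-linked genes, 1 to a list of endothelial markers, and 18 to no list. The interferon-linked lists hold 315 of the 21794 genes tested. They were written with earlier results of these data known, so the count of 68 is not separate support. All 87 had both IFNα arrays above both control arrays, as had 17.9% of all genes. Their IFNα arrays differed by a median of 0.19 and at most 0.94 on the log2 scale. Both traits are favoured by the test that picked these genes on the same arrays. In controls 69 of the 87 had a higher level in replicate 1 than in replicate 2, and these 69 necessarily had the larger change against replicate 2 alone. The count of 72 rested on single arrays. It was 0 without LP IFNα replicate 1 or without LP IFNα replicate 2, 3 without either MaSC IFNα array, 21 without either MaSC control array, and 422 (214 higher, 208 lower) when LP control replicate 1 was the only LP control. The count of 54 was likewise 0 without either LP IFNα array and 8 without either MaSC IFNα array. Fitting the LP arrays alone gave 0 for both, with 695 genes higher and 621 lower at an unadjusted p under 0.05 against both controls, and 818 and 715 against replicate 2.

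**Figure D1:**
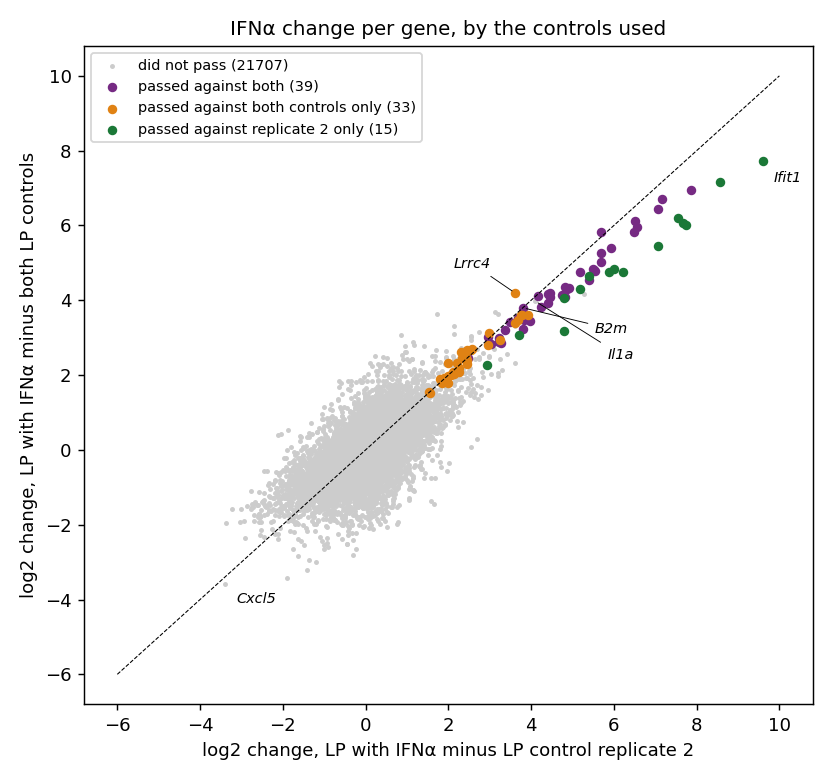
Each point is 1 of 21794 genes, with its log2 change in LP with IFNα against LP control replicate 2 on the horizontal axis and against both LP controls on the vertical axis. Genes that passed in both fits (39), against both controls only (33) or against replicate 2 only (15) are coloured, and the dashed line marks equal changes. Most of the largest rises lie below the line, and Cxcl5 stands apart at the lower end.

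Large changes were found in genes that act directly on viral RNA or viral particles. Ifit1, which binds viral RNA lacking the host cap mark, had levels of 4.62 and 4.93 with IFNα, against -1.09 and -4.83 in controls. Every IFNα value of Ifit1 lay above every control value, but the controls lay far apart from each other. It rose by 9.61 ± 0.43 against replicate 2 (adjusted p = 0.0079) and had a change of 7.74 ± 1.13 against both controls, which did not pass (adjusted p = 0.098). The related Ifit3b rose in both fits, by 5.96 ± 0.52 (adjusted p = 0.020) and 6.57 ± 0.50 (adjusted p = 0.023). Of 6 IFIT genes tested 2 rose against both controls and 3 against replicate 2, with median changes of 4.10 and 4.26, where the medians over all genes tested were 0.00 and 0.04. Probes of close paralogs, such as those of the IFIT, Oas1, Trim30 and MHC class I genes, may hybridise with each other's RNA, so their values are not independent.

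Oasl2, of the oligoadenylate synthetase family of RNA sensors, had levels of 3.81 and 3.75 with IFNα, against -2.50 and -3.39 in controls. Its change of 6.72 ± 0.41 passed against both controls (adjusted p = 0.0090), as did 7.17 ± 0.41 against replicate 2 (adjusted p = 0.011). Oas1a, whose product makes the 2'-5' oligoadenylates that activate RNase L, rose by 5.82 ± 0.42 against both controls and by 6.48 ± 0.22 against replicate 2, and Oas2 by 5.39 ± 0.39 and 5.92 ± 0.31. Oasl1 had levels of 1.71 and 1.71 with IFNα, against -1.73 and -3.47 in controls, and passed against replicate 2 only (4.31 ± 0.58, adjusted p = 0.069, and 5.18 ± 0.38, adjusted p = 0.020). In the list of oligoadenylate synthetases and RNase L, 10 of 12 genes had both IFNα arrays above both controls. Over all genes tested 17.9% did.

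Among 27 restriction factors 8 rose against both controls and 12 against replicate 2. Bst2, or tetherin, which holds budding virions at the cell surface, had levels of 3.71 and 3.89 with IFNα, against -1.96 and -2.71 in controls, and rose by 6.13 ± 0.28 (adjusted p = 0.0046) and 6.50 ± 0.24 (adjusted p = 0.0063). Rtp4 rose by 5.27 ± 0.41 and 5.70 ± 0.44, and Phf11d by 4.84 ± 0.42 and 5.50 ± 0.23, against both controls and against replicate 2. In contrast Mx1, a dynamin-like GTPase that traps viral nucleocapsids, had levels of 2.83 and 3.76 with IFNα, against -0.55 and -3.78 in controls. Its changes were 5.46 ± 1.01 against both controls (adjusted p = 0.21) and 7.07 ± 0.51 against replicate 2 (adjusted p = 0.020). Mx2, Rsad2, Ifi27l2a and Xaf1 likewise passed against replicate 2 only. Rsad2, or viperin, which makes a chain-terminating nucleotide, had levels of 2.46 and 2.96 with IFNα, against -0.59 and -3.51 in controls. For these genes control replicate 1 lay closer to 0 than control replicate 2, and both controls lay below both IFNα arrays.

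**Figure D2:**
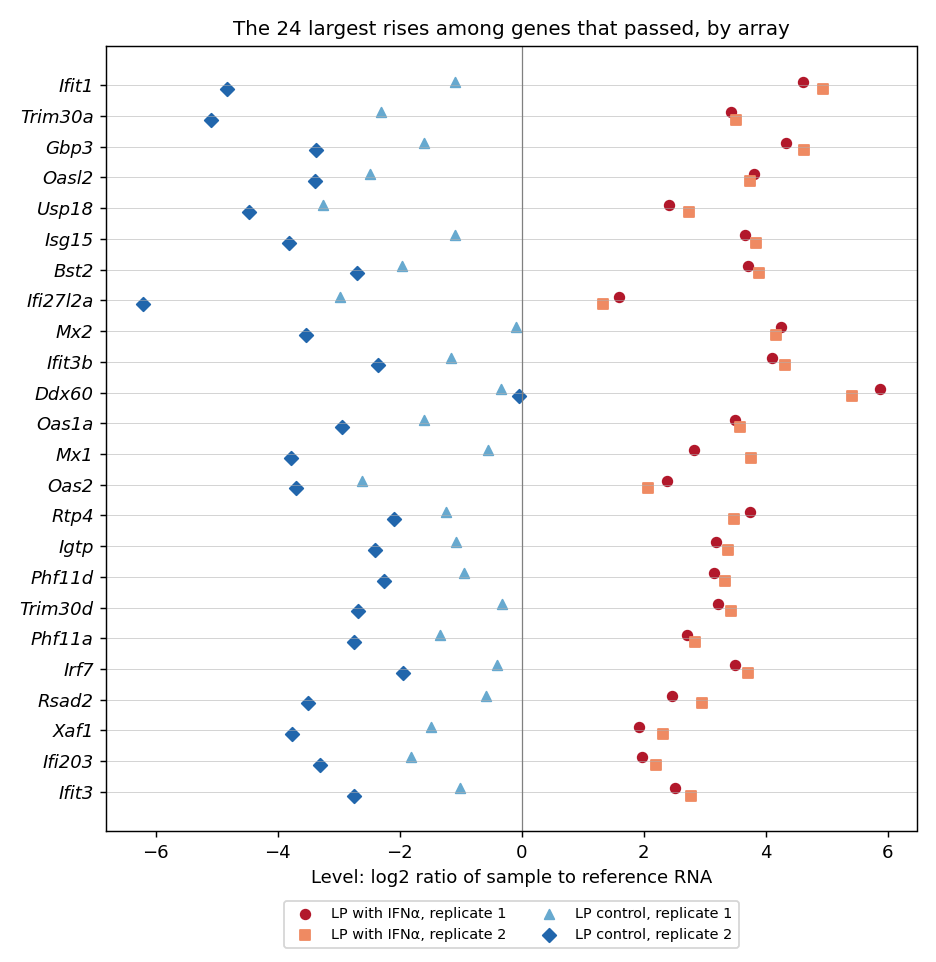
Levels (log2 ratio of sample to reference RNA, horizontal axis) of the 24 genes with the largest rise against both LP controls among the genes that passed in either fit, gene models left out. Each gene has 1 point per LP array, and on every row both IFNα points lie to the right of both control points. The IFNα points of a gene lie close together, while control replicate 1 lies to the right of control replicate 2 for all but Ddx60.

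Promoter windows of several of these genes are shown because the ISRE is the sequence through which type I interferon is known to act. The motif GAAANNGAAA, which holds the repeated core of the ISRE, and its reverse complement TTTCNNTTTC were searched in RefSeq windows of 250 bases before to 50 bases after each annotated start (GRCm38.p6), counting overlapping matches. It was present in 3.44% of all 32851 windows, and in at least 1 window of 3.96% of the 17127 tested genes that have one. Of the 87 genes that passed in LP, 63 had a window and 29 of these (46.0%) held the motif. No match says only that these letters are not in this window, and a match is not evidence of binding. The stretches below lie upstream of the start, on the strand of the gene, with matches in capitals. They come from Ifit1 (chr19:34640745-34640853, plus strand), Isg15 (chr4:156200835-156200936, minus strand), Bst2 (chr8:71537547-71537642, minus strand), Ddx60 (chr8:61927994-61928086, plus strand), Oas1a (chr5:120907526-120907585, minus strand), Gbp3 (chr3:142559959-142560043, plus strand) and B2m (chr2:122147508-122147597, plus strand).
Ifit1: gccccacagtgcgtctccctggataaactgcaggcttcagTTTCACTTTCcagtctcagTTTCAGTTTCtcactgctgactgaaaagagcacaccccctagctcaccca
Isg15: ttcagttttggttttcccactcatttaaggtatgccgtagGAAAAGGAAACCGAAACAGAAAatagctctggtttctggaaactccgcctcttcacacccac
Bst2: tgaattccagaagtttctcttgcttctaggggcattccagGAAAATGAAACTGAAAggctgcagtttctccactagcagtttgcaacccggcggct
Ddx60: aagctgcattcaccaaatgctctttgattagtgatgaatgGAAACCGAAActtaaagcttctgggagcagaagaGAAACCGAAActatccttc
Oas1a: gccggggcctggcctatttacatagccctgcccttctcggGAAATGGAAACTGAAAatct
Gbp3: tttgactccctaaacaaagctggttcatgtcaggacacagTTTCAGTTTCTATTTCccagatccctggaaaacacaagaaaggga
B2m: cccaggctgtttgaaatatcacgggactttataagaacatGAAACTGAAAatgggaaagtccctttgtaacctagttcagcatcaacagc
Ifit1 and Ddx60 carry 2 separate matches, Bst2, Oas1a and Gbp3 carry 2 overlapping ones, Isg15 carries 3 that overlap, and B2m carries 1. The window searched for Oasl2 and that for Irf7, whose changes were also large, had none.

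The ISG15 system, a ubiquitin-like modifier with its conjugating and removing enzymes, rose with 3 of 7 genes in each fit. Isg15 itself had levels of 3.66 and 3.84 with IFNα, against -1.09 and -3.81 in controls, and passed against replicate 2 only (7.56 ± 0.43, adjusted p = 0.011), with 6.20 ± 0.85 against both controls (adjusted p = 0.075). Usp18, which removes ISG15 from proteins and also dampens signalling at IFNAR2, had levels of 2.41 and 2.74 with IFNα, against -3.26 and -4.48 in controls. It rose by 6.45 ± 0.40 (adjusted p = 0.0090) and 7.06 ± 0.24 (adjusted p = 0.0063). The mouse ISG15 ligase gene Herc6 rose by 3.83 ± 0.36 and 4.25 ± 0.35. The conjugating enzyme gene Ube2l6 passed against both controls (3.40 ± 0.33, adjusted p = 0.027), with 3.62 ± 0.40 against replicate 2.

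Of 17 transcription factors of the IRF and STAT families and related regulators, the same 2 passed in both fits. Irf7, the factor that amplifies interferon production, had levels of 3.50 and 3.70 with IFNα, against -0.41 and -1.95 in controls, and rose by 4.78 ± 0.49 (adjusted p = 0.033) and 5.55 ± 0.27 (adjusted p = 0.0091). Stat2 had levels of 2.48 and 2.56 with IFNα, against -0.83 and -0.97 in controls, with a change of 3.42 ± 0.17 (adjusted p = 0.0065) and 3.49 ± 0.22 (adjusted p = 0.014). Irf9, whose product works with STAT2, did not pass at 1.40 ± 0.19 (adjusted p = 0.066) and 1.36 ± 0.24 (adjusted p = 0.27), although its IFNα levels of 1.22 and 0.95 lay above control levels of -0.36 and -0.28. The receptor genes had small changes that did not pass, namely 0.21 ± 0.20 and 0.05 ± 0.24 for Ifnar1 and 0.22 ± 0.43 and 0.55 ± 0.52 for Ifnar2. Socs1, an inhibitor of the receptor kinases, had levels of -1.17 and -0.87 with IFNα, against -2.02 and -2.42 in controls, and did not pass (1.20 ± 0.22, adjusted p = 0.21, and 1.40 ± 0.25, adjusted p = 0.27). Lcor, which encodes a ligand-dependent corepressor, did not pass either, at -0.68 ± 0.25 (adjusted p = 0.62) and -0.91 ± 0.28 (adjusted p = 0.60). In all, 2 of 24 genes for receptors, kinases and brakes rose against both controls (Usp18 and Ifi35) and 1 against replicate 2, with median changes of 0.20 and 0.15.

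Sensors of cytosolic RNA rose in larger number against both controls, 9 of 17, than against replicate 2, 3 of 17. Ddx60, a helicase that promotes RIG-I-like signalling, had levels of 5.87 and 5.42 with IFNα, against -0.33 and -0.05 in controls. It rose by 5.83 ± 0.25 (adjusted p = 0.0046) and 5.69 ± 0.31 (adjusted p = 0.011). Ifih1, or MDA5, passed against both controls (3.61 ± 0.32, adjusted p = 0.021) but not against replicate 2 (3.78 ± 0.40, adjusted p = 0.072), although the change was no smaller. Dhx58, or LGP2, rose by 3.24 ± 0.37 and 3.81 ± 0.22, and Zbp1, a sensor of Z-form nucleic acid, by 3.20 ± 0.25 and 3.38 ± 0.30. Eif2ak2, or PKR, which halts translation on double-stranded RNA, passed against both controls only (1.93 ± 0.19, adjusted p = 0.028). Among 12 genes of DNA sensing and the p200 family 3 rose against both controls and 4 against replicate 2, and these included Ifi202b (4.09 ± 0.28 and 4.46 ± 0.23) and Ifi204 (3.45 ± 0.39 and 3.98 ± 0.32).

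Interferon-inducible GTPases attack the vacuoles of intracellular pathogens. Of 9 immunity-related GTPases 4 rose, Igtp, Iigp1, Irgm1 and Irgm2, and these same 4 passed in both fits. Irgm1 had levels of 3.16 and 3.13 with IFNα, against 0.05 and 0.19 in controls, and rose by 3.02 ± 0.17 (adjusted p = 0.0090) and 2.95 ± 0.22 (adjusted p = 0.020). Igtp rose by 5.02 ± 0.54 and 5.68 ± 0.50. Ifi47, of the same family, was not in this list of 9 and is given below. Of 11 guanylate-binding protein genes Gbp3 and Gbp9 passed in both fits. Gbp3 had levels of 4.33 and 4.62 with IFNα, against -1.60 and -3.38 in controls, and rose by 6.96 ± 0.57 (adjusted p = 0.017) and 7.85 ± 0.32 (adjusted p = 0.0063). The median changes were 2.69 and 2.95 for the immunity-related GTPases and 1.96 and 2.31 for the guanylate-binding proteins.

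Other effector families also held genes that rose. Of 16 antiviral TRIM genes Trim12c passed against both controls (2.08 ± 0.25, adjusted p = 0.048), and Trim30a and Trim30d passed against replicate 2. Trim30a, a ubiquitin ligase gene that dampens inflammatory signalling, had levels of 3.44 and 3.52 with IFNα, against -2.30 and -5.09 in controls, and changes of 7.17 ± 0.94 (adjusted p = 0.065) and 8.57 ± 0.63 (adjusted p = 0.020). Of 13 Schlafen and Apol9 genes Apol9a, Apol9b and Slfn8 passed in both fits. Slfn8 had levels of 3.12 and 3.04 with IFNα, against -0.05 and -0.75 in controls, and rose by 3.48 ± 0.26 (adjusted p = 0.014) and 3.83 ± 0.22 (adjusted p = 0.011). Among 11 genes of ADP-ribosylation Parp10, Parp12 and Dtx3l rose against both controls, and Parp12 also against replicate 2 (2.86 ± 0.32 and 3.28 ± 0.28). Of 16 nuclear body and nuclease genes 14 had both IFNα arrays above both controls, where 17.9% of all genes did. Eif2ak2 was the only one of these 16 to pass.

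Genes of MHC class I presentation rose at several steps of the pathway. B2m, the invariant light chain of class I molecules, had nearly the same level in both replicates of a condition, at 2.61 and 2.68 with IFNα, against -1.16 and -1.15 in controls. Its rise of 3.80 ± 0.17 against both controls (13.9-fold, adjusted p = 0.0046) and of 3.80 ± 0.22 against replicate 2 (adjusted p = 0.011) was the same whichever controls were used. Of 20 class I chain and regulator genes 7 rose against both controls and 5 against replicate 2. H2-T10 rose by 2.84 ± 0.22 and 3.02 ± 0.26, and H2-T9 by 3.00 ± 0.23 and 3.23 ± 0.26. H2-Q6 and H2-Q7 passed against both controls only, at 2.61 ± 0.29 and 2.67 ± 0.28, and H2-Q8 against replicate 2 only, at 4.79 ± 0.35. The peptide transporter subunit gene Tap2 had levels of 0.78 and 0.95 with IFNα, against -1.60 and -1.61 in controls, and rose by 2.47 ± 0.18 (adjusted p = 0.014) and 2.47 ± 0.23 (adjusted p = 0.044). Its partner Tap1 had changes of 3.07 ± 0.41 against both controls (adjusted p = 0.069) and 3.70 ± 0.25 against replicate 2. The immunoproteasome subunit gene Psmb8 had 3.48 ± 0.37 against both controls (adjusted p = 0.038) and 3.68 ± 0.46 against replicate 2. The 13 genes of the immunoproteasome and of peptide loading had median changes of 1.41 and 1.52. Changes against both controls were small for Pdia3 (0.02 ± 0.23), Canx (0.13 ± 0.35) and Calr (0.22 ± 0.21). The 12 genes of the constitutive proteasome had medians of 0.15 and 0.05 and 0 passed by limma, with 1 at an unadjusted p under 0.05 against both controls and 0 against replicate 2, and Psma1, the one of lowest p, had 0.48 ± 0.17 (adjusted p = 0.59). None of 12 MHC class II pathway genes passed (median 0.06 and 0.21).

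**Figure D3:**
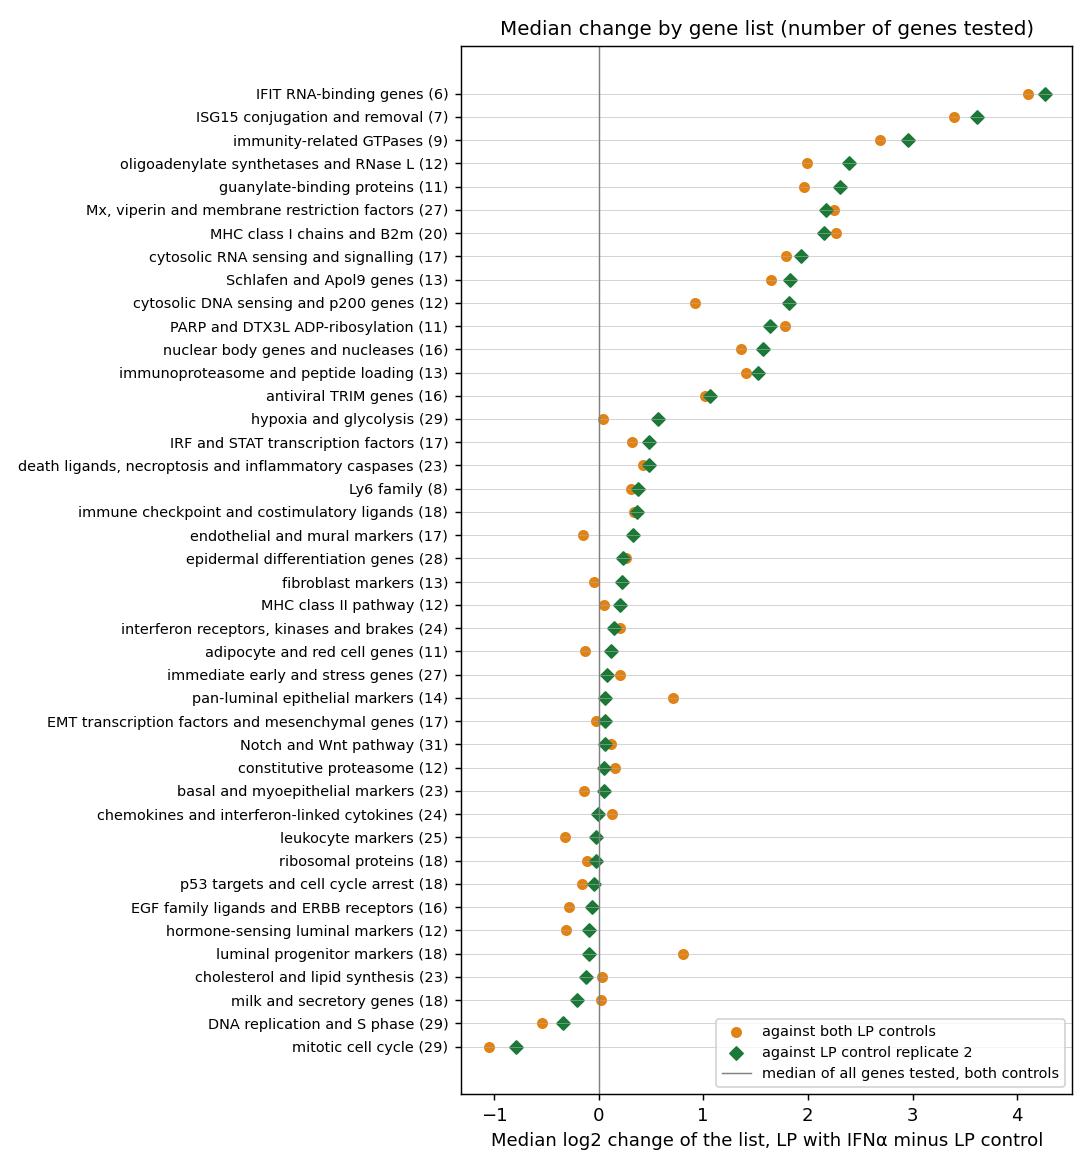
Median log2 change of each gene list in LP with IFNα against both LP controls (circles) and against LP control replicate 2 (diamonds), with the number of genes tested in brackets. Lists of antiviral, RNA and DNA sensing, MHC class I and peptide loading genes have medians above 1 in at least 1 fit, the MHC class II list has medians of 0.06 and 0.21, both cell cycle lists lie below 0, and the luminal progenitor, luminal and hypoxia lists move with the choice of control.

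Few genes for secreted and cell surface signals passed. Of 24 chemokines and interferon-linked cytokines 1 passed, Il18bp, which encodes the decoy of interleukin-18, with levels of 2.03 and 2.17 with IFNα, against -0.03 and -0.36 in controls (2.29 ± 0.22, adjusted p = 0.027, and 2.46 ± 0.26, adjusted p = 0.072). Cxcl10, a chemokine for T cells, had levels of -1.48 and -0.41 with IFNα, against -1.35 and -3.47 in controls, so the groups overlapped. Its 2 probes had changes of -0.12 and 3.06 against both controls. Cd274, which encodes PD-L1, had levels of -1.52 and -0.46 with IFNα, against -2.22 and -3.51 in controls, and did not pass (1.87 ± 0.52, adjusted p = 0.47, and 2.52 ± 0.48, adjusted p = 0.31). Lgals9, a galectin and checkpoint ligand, passed against both controls (2.69 ± 0.22, adjusted p = 0.017), and so did Tnfsf10, which encodes the death ligand TRAIL (2.01 ± 0.22, adjusted p = 0.038). Against replicate 2 their changes were 2.58 ± 0.275 and 2.07 ± 0.29. Il1a and Il15 were singled out after their values were seen. Il1a had levels of 4.82 and 3.26 with IFNα, against 0.18 and -0.05 in LP controls, and did not pass (3.98 ± 0.71, adjusted p = 0.18, and 4.10 ± 0.94, adjusted p = 0.43). Il15 had levels of 4.36 and 4.46 with IFNα, against 0.33 and 2.28 in controls (3.10 ± 0.79, adjusted p = 0.41, and 2.13 ± 0.72, adjusted p = 0.65). In MaSC cultures Il1a was high in both conditions, at 5.02 and 3.26 with IFNα, against 5.17 and 4.74 in controls.

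Of the 18 genes that passed and belong to no list, 5 are gene models. Several of the others have a known interferon link, such as Ifi47, an immunity-related GTPase (3.60 ± 0.39, adjusted p = 0.038 against both controls), Samd9l, which restricts poxviruses (3.53 ± 0.26, adjusted p = 0.014, and 3.68 ± 0.32, adjusted p = 0.034), Rnf213, a ubiquitin ligase (2.19 ± 0.24, adjusted p = 0.039), and the class I genes H2-K2 (2.66 ± 0.27) and H2-Q5 (2.45 ± 0.28). Ifi203-ps passed in both fits, with changes of 4.08 ± 0.48 and 4.82 ± 0.29. Tdrd7 (1.92 ± 0.16), Fbxw17 (2.46 ± 0.22), Slc2a6, a hexose transporter gene (1.90 ± 0.22), and the helicase gene Ddx24 (1.56 ± 0.17) passed against both controls only.

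A few of the genes that rose in LP had changes under 1 in MaSC cultures. Lrrc4, which encodes a synaptic adhesion protein, had LP levels of 5.29 and 4.82 with IFNα, against 0.27 and 1.44 in controls, and rose by 4.20 ± 0.45 against both controls (adjusted p = 0.038), with 3.61 ± 0.40 against replicate 2 (adjusted p = 0.082). In MaSC it had 4.60 and 4.31 with IFNα, against 3.88 and 3.17 in controls. Cdh5, which encodes the endothelial adhesion protein VE-cadherin, had LP levels of 2.29 and 3.08 with IFNα, against -0.57 and -1.25 in controls, and rose by 3.59 ± 0.39 against both controls (adjusted p = 0.038), with 3.94 ± 0.45 against replicate 2 (adjusted p = 0.086). Its MaSC levels were far higher, at 6.24 and 5.92 with IFNα, against 5.56 and 4.97 in controls. Cdh5 was the only 1 of 17 endothelial and mural markers to pass. Their mean level was 0.08 and 0.09 on the LP IFNα arrays, against -0.09 and -0.32 in LP controls, and the list had a median change of -0.15 against both controls and 0.33 against replicate 2. The part of endothelial cells in the change of Cdh5 was not tested. Dhh, a hedgehog ligand gene, passed against replicate 2 only (4.79 ± 0.34, adjusted p = 0.020), with levels of 1.87 and 2.06 with IFNα, against 0.42 and -2.83 in controls. Npat, a coactivator of histone gene transcription, rose by 1.78 ± 0.19 against both controls (adjusted p = 0.037).

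The test of the difference between the LP and the MaSC response found no gene with an adjusted p under 0.05, against both LP controls or against replicate 2, while 394 genes had a larger and 537 a smaller change in LP at an unadjusted p under 0.05 by limma against both controls. Against both LP controls the LP response minus the MaSC response was 3.26 for Lrrc4 (95% interval 1.69 to 4.84, not adjusted), 2.78 for Cdh5 (1.43 to 4.14), 2.86 for Dhh (-0.51 to 6.22) and 1.19 for Npat (0.54 to 1.84), each with an adjusted p of 0.9997. These genes were picked for passing in LP with a MaSC change under 1. That choice favours a large difference, so their intervals are not a test of it. Over the 87 genes that passed in LP the difference ran from -2.66 to 3.26 with a median of 0.25, and in 16 of them it was over 1 in either direction. Against both controls and against replicate 2 it was -2.66 and -1.05 for Ifi27l2a (MaSC change 8.72), -1.44 and 0.02 for Rsad2, 1.03 and 1.45 for Herc6, and 0.01 and 0.62 for Usp18. Gm4759, a gene model singled out after its values were seen, had a change of 1.52 in LP and -0.38 in MaSC. Its 2 probes gave -0.25 and 3.30 in LP.

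**Figure D4:**
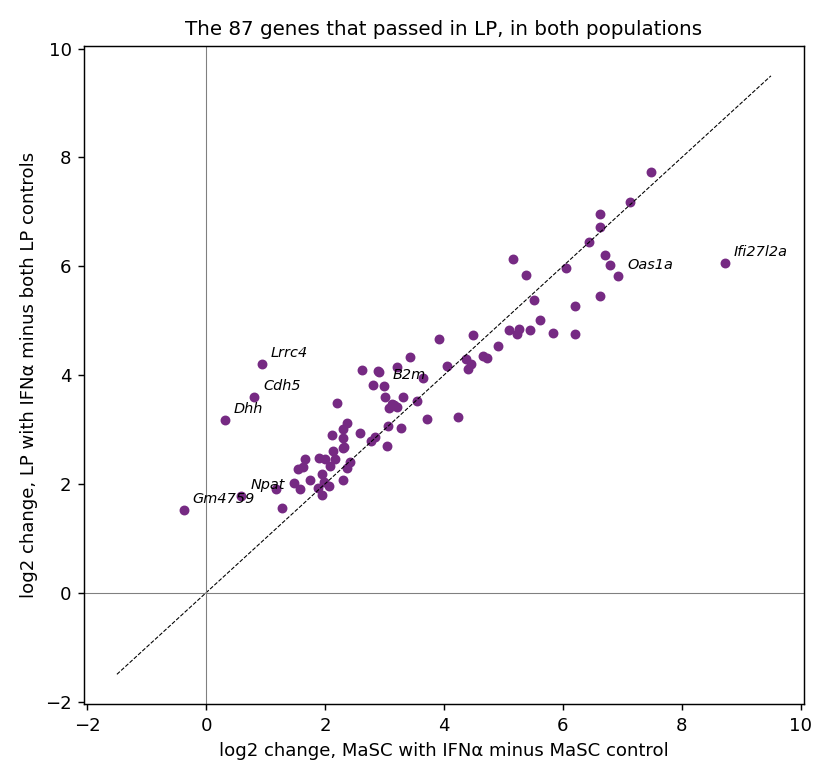
The 87 genes that passed in LP, with the log2 change in MaSC with IFNα against MaSC controls on the horizontal axis and in LP with IFNα against both LP controls on the vertical axis. The dashed line marks equal changes. Most genes lie near it, and Lrrc4, Cdh5, Dhh and Npat lie above it with MaSC changes under 1.

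No gene passed as lower with IFNα in either fit, while 805 genes against both controls and 760 against replicate 2 were lower at an unadjusted p under 0.05 by limma. Cxcl5, a neutrophil chemokine, had the widest separation downward. Its levels were 0.08 and -0.02 with IFNα, against 3.84 and 3.42 in controls, a change of -3.60 ± 0.67 (adjusted p = 0.21) and -3.39 ± 0.87 (adjusted p = 0.49). It was the only gene whose control arrays lay more than 3 above its IFNα arrays, where 49 genes (0.225%) had a gap of at least 3 upward. In MaSC its levels were -0.57 and -1.78 with IFNα, against 1.74 and -0.09 in controls. The genes of lowest p against both controls were Arhgap24 (-1.47 ± 0.21, adjusted p = 0.082), Dipk1b (-1.80 ± 0.27, adjusted p = 0.11), the olfactory receptor gene Olfr424 (-1.35 ± 0.21, adjusted p = 0.11), Ctnnal1, an α-catenin relative (-2.24 ± 0.36, adjusted p = 0.13) and Cdc20 (-1.26 ± 0.21, adjusted p = 0.14). Wide gaps downward were also present for Traf1, an adaptor of TNF receptor signalling, with -1.49 and -1.57 with IFNα, against 0.26 and 0.28 in controls, and for Sod3, the extracellular superoxide dismutase, with -0.94 and -0.99, against 0.97 and 0.83. Against replicate 2 Arhgap25 had the lowest p among lower genes (-1.89 ± 0.22, adjusted p = 0.096).

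Most cell cycle genes had lower levels with IFNα, and none of them passed. Of 29 mitotic genes 26 (89.7%) had both IFNα arrays below both controls, as had 18.6% of all genes. Their median change was -1.05 against both controls and -0.79 against replicate 2. At an unadjusted p under 0.05 by limma 26 of them were lower against both controls and 14 against replicate 2, and 0 were higher. Mki67, the proliferation marker, had levels of -3.21 and -3.73 with IFNα, against -1.82 and -2.41 in controls (-1.36 ± 0.31, adjusted p = 0.36, and -1.07 ± 0.34, adjusted p = 0.63). Cdc20, the activator of the anaphase-promoting complex, had -2.38 and -2.63, against -1.18 and -1.32. Of 29 genes of DNA replication and S phase 22 (75.9%) lay below both controls, with medians of -0.54 and -0.34, and 6 and 1 were lower at an unadjusted p under 0.05. Rrm2, a ribonucleotide reductase subunit gene, had -2.80 and -3.28 with IFNα, against -1.88 and -2.16. Over all 21794 genes tested 805 were lower against both controls at an unadjusted p under 0.05 by limma. Against replicate 2 the count of replication genes was near the share over all genes. Cell cycle genes move together, so the counts are not counts of independent genes. The mitotic list averaged -0.75 on control replicate 1 and -1.36 on control replicate 2. The compressed range of control replicate 1 lifts genes of low level, so the counts below both controls rest mainly on control replicate 2. The mitotic median was negative under every alternative tried and came to -0.51 after quantile normalization, and in MaSC it was -0.44. Cdkn1a, a p53 target that arrests the cell cycle, had a change of 0.26 ± 0.26 and 0.28 ± 0.35, and of 18 p53 targets and arrest genes 0 passed.

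Mean levels of hypoxia and glycolysis genes differed more by replicate number than by treatment on the LP arrays. Their mean level was -0.35 on IFNα replicate 1 and -1.53 on IFNα replicate 2, against -0.44 on control replicate 1 and -1.57 on control replicate 2. Within a number the treated and control arrays thus differed by 0.09 and 0.03, while replicates of a condition differed by 1.19 and 1.13. Control replicate 1 has a compressed range, which also lifts genes of low level, and its part in this split was not tested. Against both controls the list had a median change of 0.04, and against replicate 2 alone 0.57, since that fit sets both IFNα arrays against a single array of number 2. Ldha, which encodes lactate dehydrogenase A, had levels of -0.13 and -0.84 with IFNα, against 0.04 and -0.63 in controls. None of the 29 genes passed in either fit by limma, and 1 was higher at an unadjusted p under 0.05 against both controls and 0 against replicate 2.

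**Figure D5:**
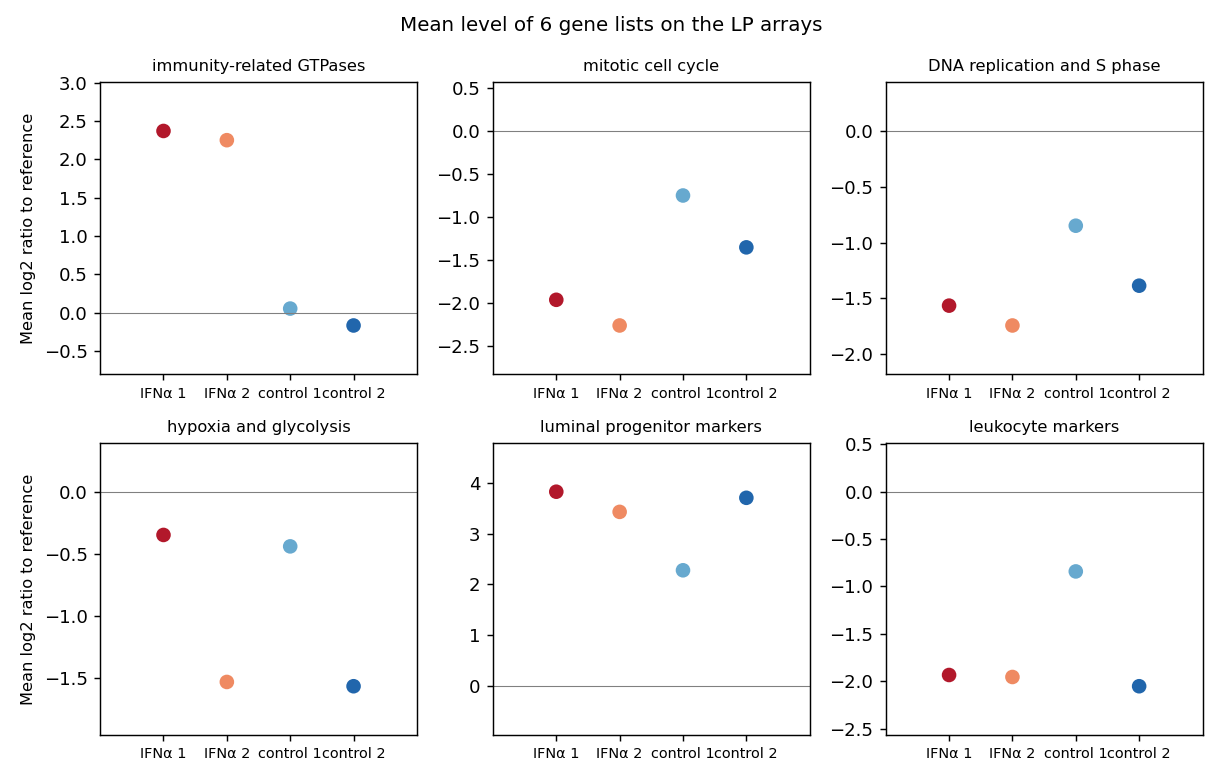
Mean level (log2 ratio to reference RNA, vertical axes of different range) of 6 gene lists on the LP arrays, IFNα replicates 1 and 2 at the left and control replicates 1 and 2 at the right of each panel. The GTPase and cell cycle lists separate the treatments, and the hypoxia list is higher on the arrays numbered 1. The luminal progenitor and leukocyte lists set control replicate 1, which has a compressed range, apart from the other 3 arrays.

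The luminal lineage markers set control replicate 1 apart from the other LP arrays. The mean of 18 luminal progenitor markers was 3.82 and 3.43 with IFNα, against 2.28 and 3.70 in controls 1 and 2, with a median change of 0.81 against both controls and -0.10 against replicate 2. Elf5, a transcription factor of luminal progenitors, had levels of 5.29 and 6.25 with IFNα, against 3.58 and 5.56 in controls. None of these 18 markers passed in either fit by limma (1 higher at an unadjusted p under 0.05 against both controls, 0 against replicate 2), and their median against both controls also turned to -0.19 when the arrays were scaled to 1 standard deviation. The list of 14 pan-luminal markers gave 0.71 and 0.07, and -0.40 after that scaling. Krt8, a luminal keratin gene, had a change of -0.02 ± 0.42 and -0.11 ± 0.55. The basal keratin genes Krt14 and Krt5 had -0.01 ± 0.21 and -0.16 ± 0.41 against both controls, and -0.20 ± 0.23 and 0.29 ± 0.41 against replicate 2. Trp63, which encodes the basal factor p63, had levels of -0.14 and -0.33 with IFNα, against 1.48 and 0.37 in controls. It did not pass against both controls (-1.16 ± 0.44, adjusted p = 0.63), and its change against replicate 2 was -0.61 ± 0.39. The 25 leukocyte markers averaged -1.93 and -1.96 with IFNα, against -0.84 and -2.05 in controls 1 and 2, with 0 passing and median changes of -0.32 and -0.03. Ptprc, the pan-leukocyte marker CD45, had levels of -2.46 and -2.78 with IFNα, against -0.77 and -1.81 in controls. The lists of fibroblast markers and of adipocyte and red cell genes had median changes of -0.05 and -0.13 against both controls and 0.22 and 0.12 against replicate 2, and no member passed. The part of these other cell types in the interferon response was not tested.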

How the data were processed

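The values deposited by the authors are log2 ratios of sample (Cy5) to reference (Cy3) per probe. The submitters' processing notes name Agilent Feature Extraction 11.0. The log base and the normalization are not given in the sources used here. Base 2 was taken because the values reach beyond log10 of 16-bit signals, and the direction was taken from the dyes. Signal over background was not used here.

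Of 55681 probes, 30626 carried 1 gene symbol and 25055 none in the platform annotation. The 30398 named probes with a value on all 8 arrays were averaged by symbol into 21794 genes, 6730 of them from several probes, and 99 genes were left out for empty values. Of 31 genes that passed and have several probes, 30 had every probe higher, and in 6 the probes differed by over 2 log2 units. No further normalization was applied. limma 3.58.1 in R 4.3.3 fitted 1 mean per group over 8 arrays, or over 7 without LP control replicate 1, with eBayes and two-sided Benjamini-Hochberg adjusted p-values at 0.05. Intervals are at 95%. The procedure was tested on simulated data. Lists were not tested: of 779 symbols in 42 lists 718 genes were measured, 40 symbols were not matched, 20 had an empty array and 1 (Herc5) is a second name of Herc6.

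The samples, lists and rules were chosen with earlier results of these data known. Gene-model names were passed over. Values are given for the 10 largest rises that passed, the 5 lower genes of lowest p, up to 6 passing members of each list or else the one of lowest p, passing genes in no list, the 10 widest gaps each way, the 5 genes of lowest p in the response difference and a fixed set of pathway and lineage genes. Alternatives were a replicate block, LP arrays alone, quantile, scaled or centred arrays, other probe choices, trend and robust options, a minimum range of 0.5, and each array left out. Promoter sequences are from RefSeq (GRCm38.p6).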

Additional observations from a re-analysis of the deposited data

Results flagged for a closer look

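In 7 of the 134 genes chosen by the naming rule, both LP arrays with IFNα lay on one side of both LP controls. In these 7 both MaSC arrays with IFNα lay on the opposite side of both MaSC controls. The same held in 973 of all genes tested (4.46%), so the count of 7 is near that share. The naming rule also takes in the 5 genes of lowest p in the response difference, a choice that favours such opposite changes. The LP response minus the MaSC response was 2.78 for Cela3b, a pancreatic elastase gene (LP 1.16, MaSC -1.62), 2.14 for the glycerol kinase gene Gk2 (1.60, -0.54), 2.88 for the casein gene Csn1s2a (2.08, -0.80) and 1.45 for the oxygen-sensing hydroxylase gene Egln1 (0.84, -0.62). It was -2.86 for the metalloprotease gene Adamts6 (-1.19, 1.67), -2.29 for the lipid droplet gene Cideb (-0.80, 1.495) and -3.87 for Arhgap25 (-3.42, 0.45). Against replicate 2 alone the difference was -2.34 for Arhgap25, where the LP change was -1.89, and 2.41 for Csn1s2a, with an LP change of 1.61. For the other 5 it was 2.73 for Cela3b, 2.07 for Gk2, 1.47 for Egln1, -2.79 for Adamts6 and -2.30 for Cideb. The test of the difference by limma gave an adjusted p of 0.9997 for each of the 7 against both controls, and 0.72 to 0.93 against replicate 2, so none of these differences passed.

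Among 24936 probes that carry no gene symbol and have a value on all arrays, 3 had a higher level with IFNα than in LP control replicate 2 at an adjusted p under 0.05, and 0 passed against both controls. Probe A_51_P487690 had levels of 3.51 and 3.14 with IFNα, against -0.76 and -4.78 in controls, and probe A_30_P01021597 had 2.10 and 2.20, against -0.84 and -2.71. Their genes are not named here.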

How the results depend on the processing

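The count against both controls (72) was 27 with the replicate number as a block, 25 of them among the 72, and 0 with LP arrays alone, also over probes with a value on all LP arrays. The count against replicate 2 (54) was 0 under each of these 3 settings. Between 41 and 94 genes passed in either fit under the other settings that keep all arrays of the fit, and 1 gene fell, after quantile normalization. Leaving out 1 array gave 0 to 422 genes against both controls and 0 to 37 against replicate 2. Replicate numbers do not pair the samples by their labels, and the correlation of replicate 1 minus replicate 2 was 0.041 between LP with IFNα and LP control, 0.31 between MaSC with IFNα and MaSC control, and -0.018 to 0.11 between the other pairs of groups. The response difference stayed at 0 under every alternative run. Probes without a symbol that passed numbered 3 without LP control replicate 1 and 8 with scaled arrays. No named gene that passed changed sign under any alternative run. Every gene that passed had both IFNα arrays above both controls, so leaving out an array could not have changed its sign. Intensities were not used here, so the limit set by weak signal is not known.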

Other observations

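Several lists outside the interferon pathway held no gene that passed in either fit. Among 28 epidermal differentiation genes 12 had both LP arrays with IFNα above both LP controls, where 17.9% of all genes did, and the list had median changes of 0.27 against both controls and 0.23 against replicate 2, which became -0.17 against both controls with scaled arrays and -0.13 after quantile normalization. Casp14, a caspase of keratinocyte cornification, had levels of 2.97 and 3.16 with IFNα, against 1.11 and 1.55 in controls. Its change was 1.73 ± 0.37 against both controls (limma adjusted p = 0.29) and 1.51 ± 0.46 against replicate 2. Cdh3, which encodes the basal adhesion protein P-cadherin, had levels of 3.24 and 3.78 with IFNα, against 0.68 and 0.94 in LP controls, and a change of 2.70 ± 0.41 against both controls (adjusted p = 0.11) and 2.57 ± 0.54 against replicate 2 (adjusted p = 0.38), with 0.37 in MaSC. Of 18 ribosomal protein genes 8 had both IFNα arrays below both controls, where 18.6% of all genes did, with medians of -0.11 and -0.03. The median changes against both controls and against replicate 2 were 0.02 and -0.21 for 18 milk genes, 0.12 and 0.06 for 31 Notch and Wnt genes, -0.28 and -0.06 for 16 EGF family genes, 0.03 and -0.12 for 23 genes of cholesterol and lipid synthesis, 0.20 and 0.08 for 27 stress genes, -0.02 and 0.06 for 17 EMT genes, -0.14 and 0.05 for 23 basal markers, and -0.31 and -0.09 for 12 hormone-sensing luminal markers.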
